A study of Homo sapiens with 14 samples.

Results

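The peaks described here are the sites that the authors called from chromatin immunoprecipitation of GATA1 in PANC-1, a line of human pancreatic cancer cells. All peaks on chromosomes 1 to 22 and X were taken from the 2 deposited lists, 121056 labelled shControl and 249122 labelled shHDAC5, which is 370178 of 371139 peaks in all. The labels give the first condition as wild type with a control hairpin and the second as knockdown of HDAC5, a class IIa histone deacetylase, by a short hairpin, both at day 3. They cover 8 of the series' 14 samples and tie each list to 2 immunoprecipitations and 2 inputs, but there is 1 list per condition. No difference between the conditions could therefore be tested, and values of the lists are set side by side. The peak names go against the labels. All 121464 lines of the list labelled shControl carry names beginning with GATA1-SAHA-IP, and all 249675 lines of the list labelled shHDAC5 carry names beginning with GATA1-NC-IP, although NC stands in the titles of the control samples. SAHA stands in the title of none of the series' 14 samples. Each list is therefore called by its label, without a statement on which cells it came from. The labels do not say whether the cells were 1 clone or whether the immunoprecipitations were pooled before calling.

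GATA1 is a zinc-finger transcription factor that binds the letters GATA in DNA and is best known for switching on globin, haem and platelet genes in red cell and megakaryocyte precursors. It works there with cofactors such as FOG1, encoded by ZFPM1, and with TAL1, LMO2 and LDB1. A peak caller marks stretches where the immunoprecipitated DNA piles up above a background. The summit is the base with the highest pile-up, and fold enrichment is the authors' ratio of that height to the background.

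Because the lists differed at GC-rich gene starts, 6 promoters are shown, each as the 250 bases before a RefSeq start (GRCh38.p14, read 5′ to 3′ on the gene's strand), with every CG dinucleotide in capitals. GNB4, a G-protein beta subunit (chr3:179451471-179451720, minus strand), and IL4R, the interleukin 4 receptor (chr16:27313724-27313973, plus strand), had summits of both lists inside the window at most 100 bp apart and ranked first by the smaller of the 2 fold values. GPR75, a G-protein-coupled receptor (chr2:53859968-53860217, minus strand), had the highest fold among promoters with a summit of the list labelled shControl alone. PDE4DIP (chr1:148844178-148844427, plus strand) and ETV1, an ETS transcription factor (chr7:13989667-13989916, minus strand), ranked first for the list labelled shHDAC5 alone. OR13J1 (chr9:35870402-35870651, minus strand) was the olfactory receptor with the highest fold in that class. Chromosome 18 was left aside in this choice.
GNB4: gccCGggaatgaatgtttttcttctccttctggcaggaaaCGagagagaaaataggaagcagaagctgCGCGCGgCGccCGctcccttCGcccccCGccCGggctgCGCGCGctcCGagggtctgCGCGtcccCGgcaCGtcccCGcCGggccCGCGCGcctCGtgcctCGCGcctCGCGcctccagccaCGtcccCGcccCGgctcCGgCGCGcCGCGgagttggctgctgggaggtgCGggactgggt
IL4R: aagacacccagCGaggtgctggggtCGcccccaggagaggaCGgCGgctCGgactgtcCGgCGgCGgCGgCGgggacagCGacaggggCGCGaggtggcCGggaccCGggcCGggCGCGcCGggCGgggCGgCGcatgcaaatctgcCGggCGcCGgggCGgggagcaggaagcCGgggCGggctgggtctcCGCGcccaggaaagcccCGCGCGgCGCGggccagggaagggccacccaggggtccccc
GPR75: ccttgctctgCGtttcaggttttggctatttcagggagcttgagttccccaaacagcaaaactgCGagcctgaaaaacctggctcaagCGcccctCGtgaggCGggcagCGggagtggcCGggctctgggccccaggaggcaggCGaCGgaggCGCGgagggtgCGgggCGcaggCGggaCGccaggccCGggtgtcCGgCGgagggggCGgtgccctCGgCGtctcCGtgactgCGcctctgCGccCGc
PDE4DIP: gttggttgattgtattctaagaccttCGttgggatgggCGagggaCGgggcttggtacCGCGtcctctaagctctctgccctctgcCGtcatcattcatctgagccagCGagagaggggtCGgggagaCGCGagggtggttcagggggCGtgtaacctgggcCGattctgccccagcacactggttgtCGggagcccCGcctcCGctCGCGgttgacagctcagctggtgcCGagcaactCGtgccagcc
ETV1: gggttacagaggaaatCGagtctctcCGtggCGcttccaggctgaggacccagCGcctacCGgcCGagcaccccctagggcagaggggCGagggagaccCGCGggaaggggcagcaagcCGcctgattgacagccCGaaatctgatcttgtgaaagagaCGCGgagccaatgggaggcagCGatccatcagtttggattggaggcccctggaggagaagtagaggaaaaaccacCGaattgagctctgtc
OR13J1: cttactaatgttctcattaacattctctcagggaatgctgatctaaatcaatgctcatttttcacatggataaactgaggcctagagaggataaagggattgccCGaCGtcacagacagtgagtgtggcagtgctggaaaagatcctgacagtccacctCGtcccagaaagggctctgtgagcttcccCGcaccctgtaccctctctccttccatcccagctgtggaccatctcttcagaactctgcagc
The windows of GNB4, IL4R and GPR75 held 37, 35 and 25 CG dinucleotides at 73.6%, 80.8% and 70.4% GC. Those of PDE4DIP and ETV1 held 19 and 15 at 63.2% and 60.8% GC, and that of OR13J1 held 4 at 49.6% GC. GATA, searched on both strands, stood in none of the first 5 windows, and OR13J1 held 2 copies.

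Peaks were short in both lists and shorter in the longer list. The lowest width was 258 bp in both, and 17.3% of the peaks labelled shControl (95% exact interval 17.1% to 17.5%) against 34.4% of those labelled shHDAC5 (34.2% to 34.5%) had exactly that width. Median widths were 341 bp and 314 bp, and the widest hundredth began at 1226 bp and 869 bp. Peaks of 1 kb or more numbered 2742 (2.27%) for shControl and 1017 (0.408%) for shHDAC5. Although it held fewer peaks, the list labelled shControl thus had more of the wide ones. The peaks covered 49.9 Mb and 90.8 Mb. Summits lay near the middle, at a median of 47.7% and 48.1% of the width. Intervals on shares cover counting error only, and peaks of 1 list are not independent.

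Most peaks were weak by the authors' own measures. The median fold enrichment was 2.73 for peaks labelled shControl and 2.33 for peaks labelled shHDAC5, and the highest was 10.8 and 8.15. Few distinct heights made up much of each list: the 3 most common fold values held 38.3% of peaks labelled shControl (2.39, 2.67 and 2.95) and 45.1% of those labelled shHDAC5 (2.14, 2.56 and 1.71). The −log10 q was 0 for 59.96% and 78.6% of peaks. A q of at most 0.05 was reached by 6175 of 121056 peaks labelled shControl and 1044 of 249122 labelled shHDAC5. The number of fragments behind a peak is not given in the files.

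The 5 widest peaks of each list lay in different places. All 5 of the list labelled shControl lay on chromosome 19 between 39169982 and 40281664, led by one of 7002 bp (chr19:40211738-40218739) with a fold of 3.89. The next 2 measured 5789 bp and 5028 bp. In the list labelled shHDAC5 the widest was 3302 bp (chr16:46398326-46401627), beside the long summit-free stretch of that chromosome, with a fold of 2.34. Another of 1871 bp lay at 46389614 on the same chromosome, and the others, on chromosomes 10 and 1, measured 2298, 1940 and 1842 bp. The −log10 q of these others was at most 0.314, against 56.8 and 34.8 for those on chromosome 16. In the list labelled shControl the fifth, of 4081 bp, had 0.357 and the wider ones 13.9 to 17.8. Copy number at these places was not measured, and its part in the widths was not tested.

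**Figure D1:**
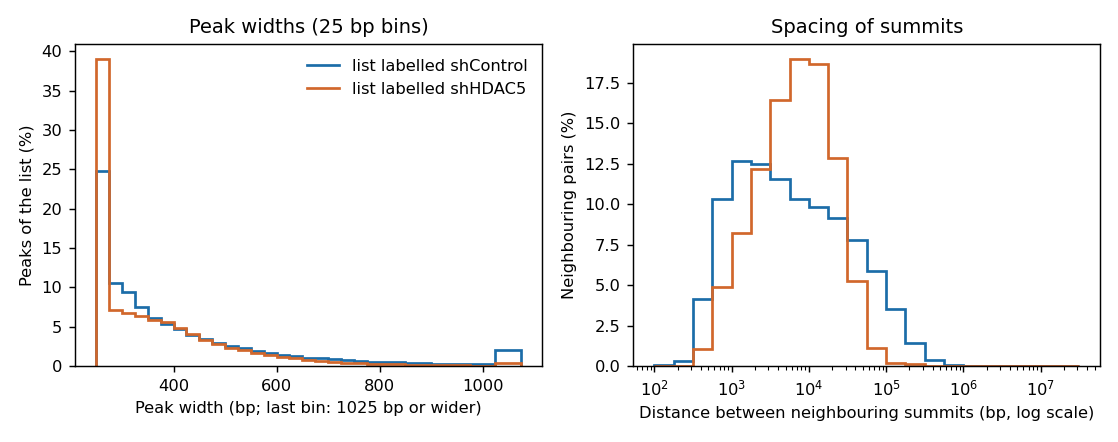
Widths of peaks (left, 25 bp bins, percent of the list) and distances between neighbouring summits on the same chromosome (right, log axis, percent of neighbouring pairs) for the 2 lists. The list labelled shHDAC5 has more peaks at the lowest width of 258 bp, and its distances form 1 narrow hump, whereas those of the list labelled shControl spread further to both sides.

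Spacing separated the lists more than width did. Neighbouring summits lay a median of 5173 bp apart in the list labelled shControl, and 7051 bp apart in that labelled shHDAC5, even though the mean distances ran the other way, at 24439 bp and 11878 bp. The ratio of median to mean was thus 0.212 and 0.594. In the list labelled shControl 14.8% of neighbours were under 1 kb apart and 5.50% were 100 kb or more apart, against 5.95% and 0.348% in the list labelled shHDAC5. Shares under 10 kb were nearly the same, at 61.9% and 61.8%. The list labelled shControl was therefore both more crowded in places and emptier in others.

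Around a summit of the list labelled shControl, other summits of that list were 1.95 times as dense at 500 to 750 bp as at 50 to 100 kb, 1.68 times at 1 to 2 kb and still 1.20 times at 10 to 20 kb. In the list labelled shHDAC5 the highest ratio was 1.19, at 750 to 1000 bp, and at 10 to 20 kb it was 1.02. Distances under 500 bp are limited in both by the width of a peak.

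Across chromosomes the list labelled shControl followed gene density. It held 124 summits per Mb on chromosome 19, which has 24.8 coding genes per Mb, 80.9 on chromosome 17 and 76.9 on chromosome 20, but 15.4 on chromosome 13, 18.4 on chromosome 4 and 20.5 on chromosome X. The highest was 8.05 times the lowest. Over 23 chromosomes of 1 list, the Spearman correlation between summits per Mb and coding genes per Mb was 0.850, given as a description without a p.

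The list labelled shHDAC5 was flatter, from 108 summits per Mb on chromosome 20 and 101.3 on chromosome 11 to 53.8 on chromosome 22 and 50.2 on chromosome 21, a range of 2.16 times. Its correlation with gene density was 0.354. Chromosome 19 was ordinary in it, with 83.9 per Mb against 82.2 over all chromosomes. Chromosomes 19 and 22 were the only ones with fewer summits in the longer list, 0.678 and 0.773 times those of the other, while on chromosomes 13 and 4 it held 3.87 and 3.78 times as many. Copy number of the chromosomes in these cells was not measured here, and its part in the densities was not tested.

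**Figure D2:**
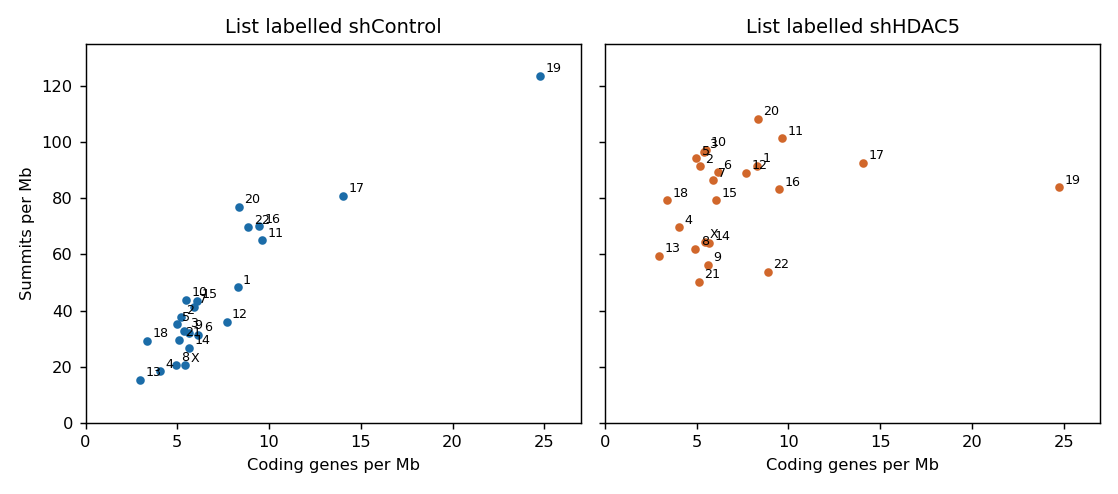
Summits per Mb against coding genes per Mb for chromosomes 1 to 22 and X (each point 1 chromosome, with its name) in the 2 lists, on the same axes. Summits of the list labelled shControl climb with gene density up to 124 per Mb on chromosome 19, and those of the list labelled shHDAC5 stay between 50.2 and 108.

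In 3043 windows of 1 Mb, pooled over all chromosomes, the Spearman correlation between summits and coding genes was 0.592 for the list labelled shControl and 0.385 for the other, closer together than over whole chromosomes. The median was 20 summits labelled shControl (10th and 90th percentiles 4 and 102, highest 473) and 86 labelled shHDAC5 (30 and 120, highest 183). The 304 fullest windows held 43.5% of the first list and 16.3% of the second. For coding genes that share was 39.8%. In windows without a coding gene the medians were 11 and 61, in windows with 6 to 10 genes 26.5 and 90, and in windows with over 20 genes 111 and 96. From the gene-free to the most gene-rich windows, the list labelled shControl thus gained far more than the other. The 107 windows without a summit labelled shHDAC5 were also without one labelled shControl, which was absent from 166 in all.

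The fullest windows of the list labelled shControl lay near chromosome ends. Megabase 1000001 to 2000000 of chromosome 11, with 24 coding genes, held 473 summits labelled shControl and 61 labelled shHDAC5, and the same megabase of chromosome 16, with 47 genes, held 463 and 88. Megabases 1000001 to 2000000, 2000001 to 3000000 and 3000001 to 4000000 of chromosome 1 held 453, 439 and 458 against 72, 69 and 109. The 5 Mb at 41 chromosome ends, leaving out the short arms of chromosomes 13, 14, 15, 21 and 22, held 140 summits labelled shControl per Mb against 32.7 elsewhere, which is 4.28 times as many. The list labelled shHDAC5 had 88.6 against 81.8, or 1.08 times, and coding genes 12.9 against 6.14, or 2.10 times. The windows at chromosome ends were chosen after the counts per window were seen.

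At the opposite extreme were gene-poor windows that the list labelled shControl nearly skipped. Megabase 85000001 to 86000000 of chromosome 4 held 1 summit labelled shControl and 81 labelled shHDAC5, and megabase 71000001 to 72000000 of chromosome 17 held 1 and 62. Windows on chromosomes 12 (35000001 to 36000000), 3 (90000001 to 91000000) and 8 (62000001 to 63000000) held 2 each against 86, 83 and 83. The fullest windows of the list labelled shHDAC5 were less one-sided. They held 183 summits on chromosome 1 (4000001 to 5000000), 182 on chromosome 19 (39000001 to 40000000, the region of the widest peaks) and 180 on chromosome 2 (217000001 to 218000000), against 165, 328 and 59 labelled shControl.

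The 3 longest stretches without a summit were the same regions in both lists, on chromosome 1 (125181600 to 143192912 in the list labelled shControl, 18011312 bp), chromosome 9 (45414435 to 60523636) and chromosome 16 (38280231 to 46427515). These stretches adjoin centromeres. Beyond them the list labelled shControl had gaps of 5544290 bp on chromosome 4 (179047749 to 184592039) and 4569859 bp on chromosome X, while no other gap of the list labelled shHDAC5 exceeded 1580278 bp, on chromosome 21.

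PANC-1 is known to have lost both copies of CDKN2A, the cell cycle inhibitor gene of the short arm of chromosome 9. Over MTAP, CDKN2A and CDKN2B together (chr9:21802636-22009313) the list labelled shControl had 0 summits and the list labelled shHDAC5 had 1, inside MTAP. At their mean densities 8.26 and 17.0 would fall in a region of that length. At the density of the megabase it starts in, which holds most of the region itself, the values would be 1.65 and 10.1, so that 0 against 1.65 shows little for the list labelled shControl. Summits were sparse over the next 5 Mb as well, with 6 to 15 per megabase labelled shHDAC5 between 22000001 and 27000000, against 82, 85, 62 and 49 in the 4 megabases from 18000001 to 22000000. Copy number was not measured, and its part in these counts was not tested. No summit of either list lay inside CDKN2A or CDKN2B.

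Both lists were denser just after gene starts, the list labelled shControl far more so. Around 22132 RefSeq starts of 15812 coding genes, its density peaked 200 to 400 bp downstream, at 0.605 summits per kb and start, 7.01 times the 0.0863 found 3 to 5 kb away. The list labelled shHDAC5 peaked in the same bin, at 0.186 summits per kb, 2.16 times its 0.0859. At 3 to 5 kb the 2 lists were thus equally dense, although the lists differ in length. Downstream of the start the first kb held 1.88 times as many summits labelled shControl as the upstream kb, and 1.47 times as many labelled shHDAC5. In the upstream kb the list labelled shHDAC5 stood at 1.12 times its distant level and the other at 2.27 times.

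**Figure D3:**
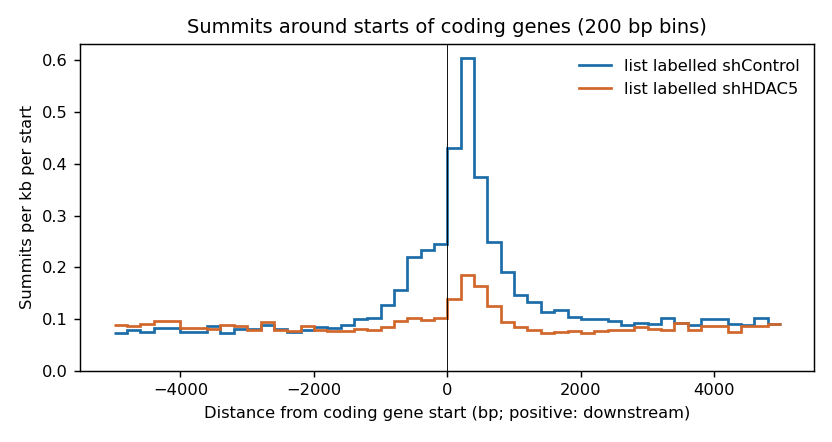
Summits per kb and start in 200 bp bins from 5 kb upstream to 5 kb downstream of 22132 starts of coding genes, for the 2 lists. Both peak 200 to 400 bp downstream of the start, at 0.605 and 0.186, and both return to about 0.086 at 3 to 5 kb.

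In all, 8.01% of summits labelled shControl (95% exact interval 7.85% to 8.16%) and 1.70% of those labelled shHDAC5 (1.65% to 1.75%) lay within 1 kb of one of these starts. Median distances to the nearest start were 36038 bp and 89838.5 bp. Peaks near starts were wider and higher than distant ones: within 1 kb of a start the median width was 393 bp and the median fold 2.95 in the list labelled shControl, against 334 bp and 2.67 over 10 kb away. In the list labelled shHDAC5 the values were 332 bp and 2.48 against 313 bp and 2.33. Coding gene bodies, which cover 41.6% of these chromosomes, held 58.8% of summits labelled shControl and 44.0% of those labelled shHDAC5. Outside every RefSeq gene were 30.3% and 41.8%.

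GC content of the promoter went with the first list and not with the second. Of 34789 distinct RefSeq promoters (250 bases before to 50 after the start, coding and non-coding), those under 45% GC held a summit labelled shControl in 0.195% of cases, those of 45% to 55% in 1.54%, of 55% to 65% in 8.55% and of 65% to 75% in 12.5%. The same classes held a summit labelled shHDAC5 in 2.66%, 3.93%, 3.22% and 3.19%. Promoters with a summit labelled shControl had a median of 67.3% GC and 26 CG dinucleotides, against 58.7% and 14 over all promoters and 57.7% and 9 where the summit was labelled shHDAC5. The part of GC content in the difference between the lists was not tested.

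The letters GATA were less frequent at promoters of the first list than over all promoters. Searched on both strands as GATA or TATC over the 300 bases, they stood in 49.7% of all promoters, in 29.96% of the 2320 with a summit labelled shControl (95% exact interval 28.1% to 31.9%) and in 54.6% of the 1107 with a summit labelled shHDAC5 (51.6% to 57.5%). The longer AGATAA, searched with its reverse TTATCT and always overlapping a GATA, stood in 10.4%, 3.75% and 14.5%. Within GC classes the interval of the first list held the share over all promoters in each of the 5 classes, and that of the second in 3. At 65% to 75% GC the share with GATA was 25.1% over all promoters, 23.8% of 1029 with a summit labelled shControl (21.2% to 26.5%) and 31.3% of 262 with one labelled shHDAC5 (25.7% to 37.3%). At 55% to 65% GC these were 45.1%, 43.1% (39.6% to 46.7%) and 52.1% (46.1% to 58.0%). In the other classes the interval of the second list held the share over all promoters. The second list had 85.9% (80.1% to 90.5%) against 84.5% under 45% GC, and 70.6% (64.9% to 75.9%) against 67.0% at 45% to 55%. Over 75% GC it had 12.6% (6.48% to 21.5%) against 10.7%. Its share was thus the higher in each of the 5 classes. That of the first list was the lower in each. It was 71.4% of 14 promoters (41.9% to 91.6%) against 84.5% under 45% GC. At 45% to 55% it was 61.5% of 109 against 67.0%, and over 75% GC 10.67% against 10.72%. The intervals cover counting error only, and no difference was tested. A match is a description of the letters, not a bound site. Sequence was read only in these promoter windows, so the shares do not describe summits elsewhere. Those include the densest bin of both lists, 200 to 400 bp after coding starts.

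Few peaks of either list had a close neighbour in the other. A summit labelled shControl had its nearest summit of the other list at a median of 3128 bp, and a summit labelled shHDAC5 at 12914 bp. Within 100 bp, 3.61% of the first list (95% exact interval 3.51% to 3.72%) and 1.76% of the second (1.70% to 1.81%) had a partner, 4375 and 4374 peaks. Exactly the same base was the summit of both in 21 cases. Of the list labelled shHDAC5, 13184 summits were over 100 kb from any of the other list, against 51 in the other direction.

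The density of one list around the other gives the background for this. Summits labelled shHDAC5 occurred at 0.184 per kb within 50 bp of a summit labelled shControl, 1.84 times the 0.100 per kb found at 50 to 100 kb. The ratio was 1.56 at 100 to 200 bp, 1.10 at 400 to 500 bp and 1.05 at 1 to 2 kb, and it was still 1.03 at 10 to 20 kb. Around the 104902 summits labelled shControl that lay over 2 kb from any RefSeq start, the ratio within 50 bp was 1.82.

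**Figure D4:**
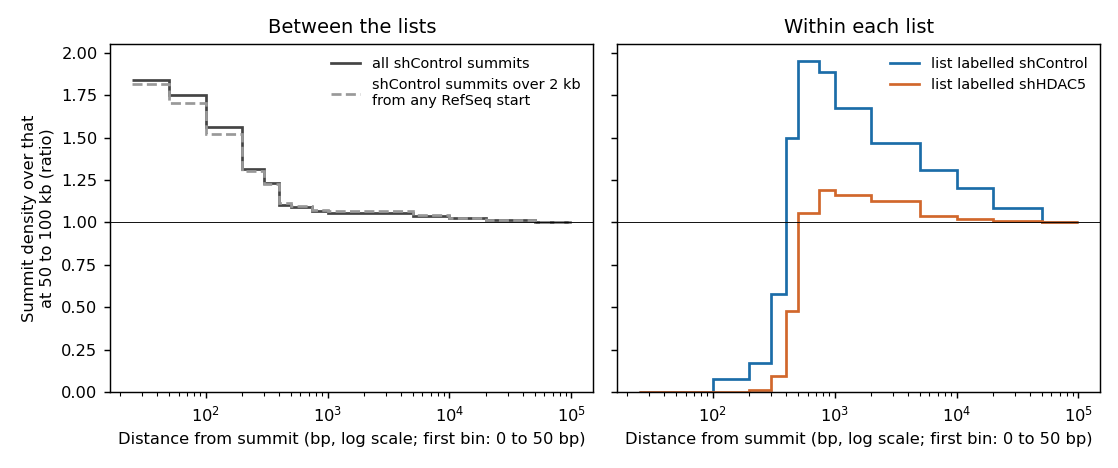
Density of summits by distance (log axis), as a ratio to the density at 50 to 100 kb, for summits labelled shHDAC5 around all summits labelled shControl or those over 2 kb from any RefSeq start (left, solid and dashed) and for each list around its own summits (right). Between the lists the ratio falls from 1.84 within 50 bp to 1.10 at 400 to 500 bp, and within the list labelled shControl it is above 1 in every bin from 400 bp to 50 kb.

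Partners were more frequent at gene starts for the list labelled shHDAC5. There 10.97% of its summits (95% exact interval 10.04% to 11.9%) had a summit of the other list within 100 bp, against 1.49% over 10 kb from a start. For the list labelled shControl the shares were 4.79% and 3.64%. Summits labelled shControl were themselves denser near starts, at 4.29 times their level 3 to 5 kb away in the first kb downstream and 2.27 times in the first kb upstream, and the part of that density in the shares was not tested. Peaks labelled shControl with a partner had a median width of 349 bp and a median fold of 2.85, against 341 bp and 2.72 for the rest. Those labelled shHDAC5 had 339 bp and 2.48 against 314 bp and 2.33, and 10.6% of them lay within 1 kb of a start, against 1.54% of the rest.

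Of the 15812 coding genes, 7879 (49.8%) had a summit labelled shControl within 1 kb of a start, 4050 (25.6%) one labelled shHDAC5 and 2331 (14.7%) both. Among the 20000 peaks of each list with the highest −log10 p, so that the lists are of equal length, 16.0% and 3.59% of genes had one. In the full lists, the 2331 shared genes were 29.6% of those with a summit labelled shControl, against 25.6% of all genes with one labelled shHDAC5. They were 57.6% of those with a summit labelled shHDAC5, against 49.8% of all genes with one labelled shControl. In 506 genes the 2 summits were at most 100 bp apart. The 12 with the highest smaller fold began with TAF11L3, a member of a repeated gene family on chromosome 5, whose summits at 17517745 and 17517779 lay 34 bp apart, at -622 and -588 bp from the start (negative values are upstream). Copies of that family share sequence, so its reads are uncertain.

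The next were genes with folds of 3.65 to 4.90 labelled shControl and 3.66 to 4.06 labelled shHDAC5. CHTF18, a replication clamp-loading factor on chromosome 16, and its neighbour RPUSD1 shared a pair of summits at 789015 and 788952, with folds of 4.07 labelled shControl and 4.03 labelled shHDAC5. MAPK8, the stress kinase JNK1 (chromosome 10), had folds of 3.98 and 4.06 at summits 549 and 577 bp after the start. MAPK9, the related kinase JNK2 (chromosome 5), had 3.65 and 3.73 at summits -352 and -335 bp from its start. GNB4, whose promoter is shown above, had 3.81 and 3.95, with summits at -87 and -50 bp. TCFL5, POC1A, EHD4, FKBP1A, EIF6 and NIPSNAP2 completed the set, with folds from 3.65 to 4.90 labelled shControl and from 3.66 to 3.85 labelled shHDAC5. FKBP1A encodes the FK506-binding immunophilin, EIF6 a ribosome assembly factor and POC1A a centriole protein. Both summits lay after the start in each of these last genes.

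Gene sets differed in which list reached them. Sets were counted at RefSeq starts where at least 80% of members had one, and otherwise at either end of the gene, where the share over all 19974 coding genes was 52.2% for the list labelled shControl, 34.0% for the list labelled shHDAC5 and 19.8% for both. Cell cycle genes had a summit labelled shControl at a start in 29 of 40 (72.5%, against 49.8% of all coding genes) and one labelled shHDAC5 in 9 of 40 (22.5%, against 25.6%). All 9 of the latter also had the former. They include PLK1, the mitotic kinase, with summits 181 and 233 bp after the start at folds of 5.76 and 3.00. RRM2, the ribonucleotide reductase subunit, had 412 and 521 bp at 3.79 and 2.63. RBL1, a retinoblastoma relative, had 191 and 669 bp at 2.99 and 4.52. In CCND3 the summits of the lists lay at different starts, 109994 bp apart.

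Olfactory receptors, which are mostly silent outside sensory tissue, were at the other extreme. A summit labelled shControl stood at 16 of 314 (5.10%) and one labelled shHDAC5 at 68 of 314 (21.7%), with both at OR51S1 and OR6B3. The first share is far under the 49.8% of all coding genes, and the second is near its 25.6%. Cytosolic ribosomal protein genes had 37 of 69 (53.6%) and 20 of 69 (29.0%), both near the shares of all genes. RPLP2, a stalk protein of the large subunit, had summits 281 and 354 bp after its start at folds of 4.40 and 3.49, and RPL39 had 199 and 133 bp at 2.94 and 3.31. Zinc finger genes of chromosome 19 had 117 of 219 (53.4%) and 63 of 219 (28.8%), near the 49.8% and 25.6% of all coding genes. ZNF382 and ZNF529, which share a start region, had folds of 4.77 and 3.42, and ZNF549 had 3.29 and 4.11. Replication-dependent histone genes had 23 of 64 (35.9%) and 12 of 64 (18.8%), both under the 49.8% and 25.6% of all coding genes. Among them were H4C9 with folds of 3.65 and 3.84 and H4C13 with 2.73 and 3.42. H2AC25 and H2BC26, a divergent pair, share their summits.

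For the red cell and platelet genes known as GATA1 targets the order of the lists was turned. Counted at either end, 17 of 50 (34%) had a summit labelled shControl, under the 52.2% of all coding genes, and 26 of 50 (52%) had one labelled shHDAC5, above its 34.0%. Both lists reached 11 of 50 (22%, against 19.8%). At the 29 genes with a RefSeq start the counts were 13 (44.8%) and 15 (51.7%). The first share lies near the 49.8% of all coding genes there, and the second above the 25.6%. TAL1, a partner of GATA1 in blood cells (chromosome 1), had a summit labelled shControl 543 bp after its start at a fold of 4.92 and one labelled shHDAC5 at -373 bp from another start at 3.37, 1536 bp from the first. KIT, the stem cell factor receptor, had summits at 77 and -226 bp from its start, with folds of 3.25 and 2.56. LYL1, a relative of TAL1, had folds of 3.25 and 2.56, and ZFPM1, the gene of the cofactor FOG1, had folds of 2.67 and 2.56. KLF1, HBD, GYPC and ITGA2B, genes of red cells and platelets, had a start summit labelled shHDAC5 and none labelled shControl, and TFRC, THBS1, SPTB, GP1BB and BCL2L1 the reverse.

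Of 15 GATA factors and cofactors, 7 (46.7%) had a summit labelled shControl at either end, 6 (40%) one labelled shHDAC5 and 4 (26.7%) both, near the 52.2%, 34.0% and 19.8% of all coding genes. Of the 10 with a RefSeq start, 7 (70%), 5 (50%) and 4 (40%) had one there. Those shares lie above the 49.8%, 25.6% and 14.7% of all coding genes, though over few genes. At starts, both lists reached GATA1, GATA3, TAL1 and ZFPM1, the first alone GATA2, LDB1 and TCF3, and the second alone LMO4. The summits of the lists at GATA3 lay at different starts, 4992 bp apart. Of 44 epithelial keratin and junction genes, 26 (59.1%) and 16 (36.4%) had a summit at either end, near the 52.2% and 34.0% of all coding genes. Of the 21 with a RefSeq start, 11 (52.4%) and 5 (23.8%) had one there, near the 49.8% and 25.6% of all coding genes. CLDN7, a tight junction claudin, had summits 254 and 277 bp after its start, 23 bp apart, at folds of 3.79 and 2.63, and CLDN3 and MUC1 were also reached by both.

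The lipid sets, which touch the study's subject, stood near or under the shares of all genes for the list labelled shControl. Phospholipase A2 enzymes, which cut fatty acids out of membrane lipids, had a start summit in 5 of 20 (25%) and 7 of 20 (35%). Of all coding genes, 49.8% and 25.6% had one. Both lists reached only PLA2G2C. The list labelled shHDAC5 reached PLA2G12A, PLA2G15, PLA2G2A, PLA2G4F, PNPLA8 and PAFAH2, and the other PAFAH1B2, PLA2G2F, PLA2G4B and PLA2G4D. Of 37 eicosanoid synthesis genes, 17 (45.9%) and 14 (37.8%) had a summit at either end. Those shares lie near the 52.2% and 34.0% of all coding genes. Of the 27 with a RefSeq start, 11 (40.7%) and 8 (29.6%) had a summit within 1 kb of it. For all coding genes these shares were 49.8% and 25.6%. Within 5000 bp the order of the lists turned, with 14 of 27 and 18 of 27, where 63.9% and 61.3% of all coding genes had one. LTC4S, the leukotriene C4 synthase, had summits at -338 and -262 bp from its start, 76 bp apart, at folds of 2.68 and 2.51. PTGS1 had a start summit labelled shControl alone and PTGS2, the inducible cyclooxygenase, one labelled shHDAC5 alone.

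**Figure D5:**
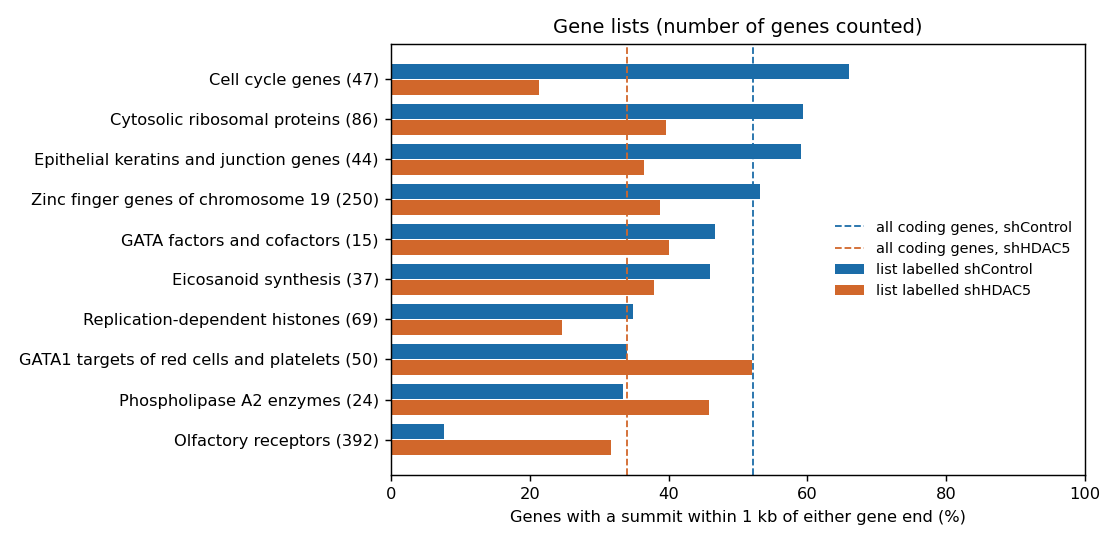
Share of genes with a summit within 1 kb of either gene end in 10 gene sets (bars, number of genes in brackets) for the 2 lists, with the shares over all 19974 coding genes as dashed lines. Red cell and platelet genes, phospholipases and olfactory receptors have more genes with a summit labelled shHDAC5, and the other 7 sets more labelled shControl.

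At the genes the study is about, the lists differed gene by gene. GATA1 itself (chromosome X, 48786590 to 48794311) had no summit labelled shControl in its body, the nearest lying 739 bp before the start at a fold of 2.39, and 2 labelled shHDAC5, the nearest 175 bp after the start at 3.42. HDAC5 (chromosome 17, 44076753 to 44123641) held 8 summits labelled shControl and 3 labelled shHDAC5. PLA2G4A, the cytosolic phospholipase A2 (chromosome 1, 186828949 to 186988981), held 0 summits labelled shControl, with the nearest 172557 bp before it and 85150 bp after it, and 26 labelled shHDAC5. The nearest of these to its start was 1209 bp away. The counts inside genes are not scaled to gene length, and PLA2G4A is much longer than GATA1 or HDAC5. Over all chromosomes the lists labelled shControl and shHDAC5 held 39.95 and 82.2 summits per Mb. Whether the counts in these genes depart from such densities was not tested.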

How the data were processed

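GATA1 immunoprecipitations and inputs of PANC-1 cells (2 of each per condition, day 3) lie behind 2 peak lists in the authors' narrowPeak format. The submitters' processing notes name fastp 0.23.2, FastQC 0.11.9, MACS2 2.2.7.1, deepTools 3.5.0, featureCounts 2.0.1 and the build hg38. No source used here gives the aligner, the peak threshold or pooling. The −log10 p of a peak was at least 1.30. The deposited columns hold positions, a score, the authors' fold enrichment (a ratio), and −log10 p and −log10 q. The score was not used, and fold only described or ranked peaks within a list. Depth is unknown, since the files give no counts. Input files and the RNA libraries were not analysed here.

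Summits on chromosomes 1 to 22 and X were compared by distance in Python 3.11.15 with numpy 2.4.6, pandas 2.3.3 and scipy 1.17.1, and the distance code was tested on simulated positions. Starts came from the RefSeq promoter table (GRCh38.p14), which matched 15812 of 19974 coding genes. Chromosome lengths were taken from the furthest peak or gene end. With 1 list per condition nothing was tested, and 95% exact (Clopper-Pearson) intervals cover counting error only. Correlations are Spearman's.

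Named genes were GATA1, HDAC5, PLA2G4A and CDKN2A with its neighbours, the 12 genes with paired summits at most 100 bp apart and the highest smaller fold, and up to 4 members per gene set with both lists at a start. Other members named as reached by 1 list, and the promoters shown, were chosen after their values were seen. Windows and gaps were the 5 most extreme by each measure, for ratios among windows with at least 20 summits. Members and gene sets were chosen with earlier results of these data known. Alternatives varied the peak threshold, distance windows and chromosome 19.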

Additional observations from a re-analysis of the deposited data

Results flagged for a closer look

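Peaks on unplaced scaffolds stand outside the chromosomes described above. The list labelled shControl had 394 of them on 58 scaffolds and the list labelled shHDAC5 had 536 on 82 scaffolds. They were noted because no comparison used them, and no control list was available to set them against.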

How the results depend on the processing

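Of 70 alternatives, 22 stayed within the margin and 48 moved. None changed sign, but only the correlations could, since widths, distances, shares and counts are never negative. Merging touching intervals could change nothing, because no peaks of a list touched. The margin was 1.5 times for counts of members and the 95% interval for shares and medians. Counts at either gene end cover more genes than counts at starts. GATA1 targets labelled shHDAC5 thus moved from 15 of 29 to 26 of 50, although the shares were 51.7% and 52%. Correlations had no interval, so each change of one counts as moved. Values are given for shControl, then shHDAC5. With q at most 0.05 (6175 and 1044 peaks) the median width was 592 and 422.5 bp and the median spacing 54579 and 646968 bp. With the 20000 peaks of highest −log10 p the width was 497 and 371 bp, the spacing 23117 and 66758 bp, the Spearman correlation with gene density 0.77 and 0.36, the share with a partner within 100 bp 1.11% and 1.11%, and the share of coding genes with a start summit 16.0% and 3.59%. Fewer peaks widen the spacing by construction. Without chromosome 19 the spacing labelled shControl was 5462 bp and the correlation was 0.83 and 0.38. A partner within 50 bp was found for 1.85% and 0.898%, and within 500 bp for 13.8% and 6.54%. Away from starts, chosen after seeing the data, the share labelled shHDAC5 was 1.56%. Start windows of 500 bp reached 39.7% and 15.9% of coding genes and of 5000 bp 63.9% and 61.3%.

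Within 5000 bp of a start the members reached were 9 and 15 of 20 phospholipases and 52 and 193 of 314 olfactory receptors. They were 19 and 23 of 29 GATA1 targets, 14 and 18 of 27 eicosanoid and 31 and 23 of 40 cell cycle genes. Further counts were 13 and 13 of 21 epithelial, 45 and 40 of 69 ribosomal and 27 and 26 of 64 histone genes. For zinc finger genes they were 150 and 127 of 219, and for GATA factors and cofactors 10 and 7 of 10. Of all coding genes, 63.9% and 61.3% were reached. The order of the lists turned for the eicosanoid genes. At either gene end, an alternative added after seeing the data, 8 and 11 of 24 phospholipases and 17 and 14 of 37 eicosanoid genes were reached. There the counts were 26 and 16 of 44 epithelial genes, 30 and 124 of 392 olfactory receptors and 17 and 26 of 50 GATA1 targets. Those of ribosomal genes were 51 and 34 of 86, and those of zinc finger genes 133 and 97 of 250. The shares of all coding genes at either end were 52.2% and 34.0%. The cause was not tested. No paired analysis was possible because each condition has 1 list, and for the same reason no replicate could be left out.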
